A study of Drosophila melanogaster with 12 samples.

Results

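Male and female Drosophila melanogaster heads were compared in the absence of Nab2, a polyadenosine RNA-binding protein that limits poly(A) tail length and acts on splicing. The comparison took the raw gene counts of the 3 libraries from Nab2 null males and the 3 from Nab2 null females, which are 6 of the 12 libraries in the series, chosen by sex and genotype alone. All 6 came from flies carrying the Nab2ex3 allele, which the labels call null, and each library was made from the decapitated heads of 60 newly eclosed adults. The other 6 libraries came from males and females with the Nab2pex41 allele, which the labels call wild type. They entered the statistical model and served as a second comparison of the sexes within the same fit. The labels do not give zygosity, and a pool of heads holds brain, eye, cuticle, muscle, fat body and blood, so that fewer cells of a type and less RNA per cell cannot be told apart.

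Sex in the fly is set by the dose of X chromosomes through Sex-lethal (Sxl), an RNA-binding protein active in females. Sxl directs female splicing of transformer (tra), which with tra2 directs the splicing of doublesex (dsx) and fruitless (fru), and it blocks translation of male-specific lethal 2 (msl-2). In males, MSL2 protein and the noncoding RNAs roX1 and roX2 form a complex that raises transcription of the single X, a process called dosage compensation. Yolk proteins are made in females by fat body, under control of dsx, and by ovary, and the head contains fat body of its own.

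The null female libraries held 25931197, 26885791 and 27612344 counts and the null male libraries 24936018, 24236847 and 23648813. Nab2 itself had 13, 20 and 32 counts in the null female libraries and 82, 15 and 11 in the null male libraries, against 1362 to 1946 in the 6 wild-type libraries. The null labels of all 6 libraries thus hold for the targeted gene, and its male minus female log2 difference of 0.74 ± 0.58 (SE) did not pass the test (adjusted p = 0.342, edgeR). Null female library 1 stood apart. A chi-square statistic of its counts, divided by its degrees of freedom, was 126 and 104 when set against the other 2 null females, while every other pair of replicates in the series gave 5.86 to 37.5. On the first principal component of the 6 libraries, which carried 61.4% of the variance, it lay at -49.1, the other null females at -16.6 and -15.9, and the null males between 21.8 and 34.3. The biological coefficient of variation was 18.1% in null females and 12.3% in null males.

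In edgeR's quasi-likelihood fit to all 12 libraries, 3265 of the 11223 genes tested (29.1%) differed between null males and null females at an adjusted p under 0.05. Of these, 1471 (13.1%) were higher in males and 1794 (16%) lower. Most differences were small. The median size of a called difference was 0.50 on the log2 scale, and 284 genes (2.53%) differed at least 2-fold, 119 (1.06%) upwards in males and 165 (1.47%) downwards. The CPM (counts per 1000000 after scaling) of the 3 males and 3 females did not overlap for 5022 genes (44.7%). The count of calls changed with the libraries in the fit. A fit to the 6 null libraries alone called 571 of 10796 genes (5.29%), 279 (2.58%) higher and 292 (2.7%) lower in males. Without null female library 1, 1876 genes (16.3%) were called, 944 (8.22%) higher and 932 (8.12%) lower. Without null male library 3, 914 (7.96%) were called, 387 (3.37%) higher and 527 (4.59%) lower. A set of 566 genes (5.04%) was called both with 12 libraries and with the 6 null libraries alone, 278 (2.48%) higher in males and 288 (2.57%) lower, and genes called in both fits are the ones named first below. With library totals in place of scaling factors, the median of all genes moved from -0.06 to 0.07 and the split became 2078 higher and 859 lower, so small differences are to be read relative to that shift. In the authors' deposited table, made with DESeq2, 3480 genes passed the same threshold, 1739 higher in males and 1741 higher in females. Of the edgeR calls, 94.6% were in that list, and 88.7% of that list were edgeR calls, all 3088 shared genes with the same direction.

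**Figure D1:**
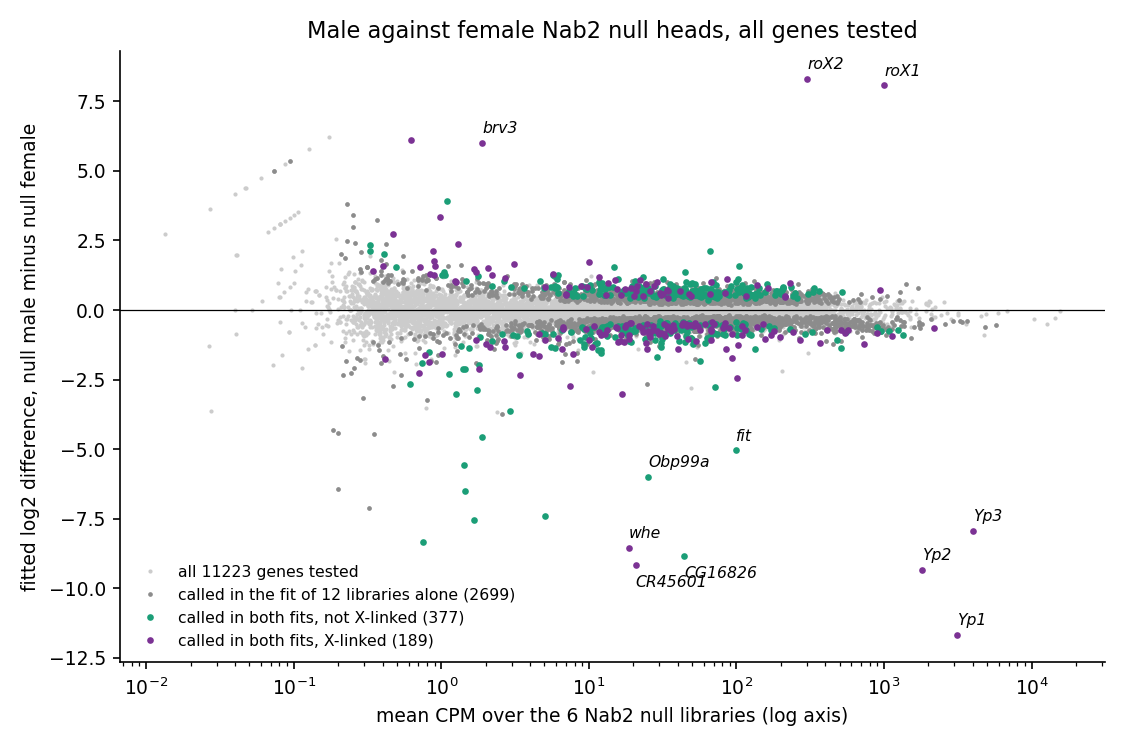
Each point is 1 of the 11223 genes tested, with its mean CPM over the 6 null libraries (log axis) against the fitted log2 difference of null males minus null females. Most called genes lie near 0, while the yolk protein genes and both roX RNAs lie farthest out among abundant genes, and X-linked genes (purple) are frequent among the large differences.

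The largest difference between the sexes lay in the genes for yolk proteins, which females load into eggs. Yp1 had 187443, 118393 and 151734 counts in the null female libraries and 28, 51 and 62 in the null males. Yp2 had 104132, 70244 and 94029 counts in females and 88, 149 and 177 in males, and Yp3 had 277634, 138311 and 166074 against 871, 875 and 676. In each gene every female library was far above every male library, and null female library 1 was the highest. The male minus female log2 differences were -11.67 ± 0.75 for Yp1 (adjusted p = 7.43e-06), -9.34 ± 0.51 for Yp2 (adjusted p = 2.33e-06) and -7.94 ± 0.54 for Yp3 (adjusted p = 8.76e-06). Without null female library 1 they were -11.38, -9.11 and -7.46. All 3 genes are X-linked. In the Ensembl annotation of BDGP6.54, Yp1 (10053811 to 10055498, forward strand) and Yp2 (10050951 to 10052636, reverse strand) are neighbours transcribed away from each other, while Yp3 lies farther along the X (13759546 to 13761547).

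CR45601, an antisense RNA gene annotated inside Yp1 (X, 10054235 to 10055109), followed its host with 1152, 853 and 1076 counts in females and 4, 1 and 0 in males. This is a ratio of 610 with a 95% counting interval of 261 to 1880. The library kit marks strand, but the strand setting used for counting is not stated, so that reads of Yp1 and of its antisense gene may not have been told apart.

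Other genes known for female or male expression in the head fat body moved as well. Of the 9 genes in the list of yolk proteins and sex-biased fat body genes, 6 were lower in males and 2 higher. The shares of 66.7% and 22.2% stand beside 16% and 13.1% of all genes. The median log2 difference was -5.05, against -0.06 over all genes. The list was drawn up from genes known to be sex-biased, so its direction is a description. Fit (female-specific independent of transformer), a secreted satiety signal of the female fat body, had 7689, 2702 and 3511 counts in females and 263, 43 and 130 in males (log2 difference -5.05 ± 0.79, adjusted p = 0.00325). Obp99a, an odorant-binding protein gene also transcribed in fat body, had 1637, 1006 and 995 counts in females and 20, 18 and 19 in males (-6.01 ± 0.52, adjusted p = 0.000118). The female values of both genes were highest in library 1, and the sexes did not overlap. Takeout (to), a juvenile hormone-binding protein family member, was also lower in males (-1.16, adjusted p = 0.0347). Without null female library 1, without null male library 3 or with library totals, 5 genes of the list were lower. Takeout was the one lost, while all 6 were lower in the 6 libraries alone. In the other direction, Cyp4d21, the cytochrome P450 also called sxe1, had 595, 573 and 683 counts in females and 4090, 1523 and 2394 in males (4.33-fold, adjusted p = 0.00546), and sxe2, a lipase gene, was higher in males by 0.99 (adjusted p = 0.0161, 0.0532 in the 6 libraries alone). Obp99b, which the annotation also lists as tsx, had 1576, 1338 and 1285 counts in females and 1861, 1258 and 1973 in males. Its sexes overlapped, and the log2 difference of 0.28 ± 0.27 did not pass (adjusted p = 0.448).

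**Figure D2:**
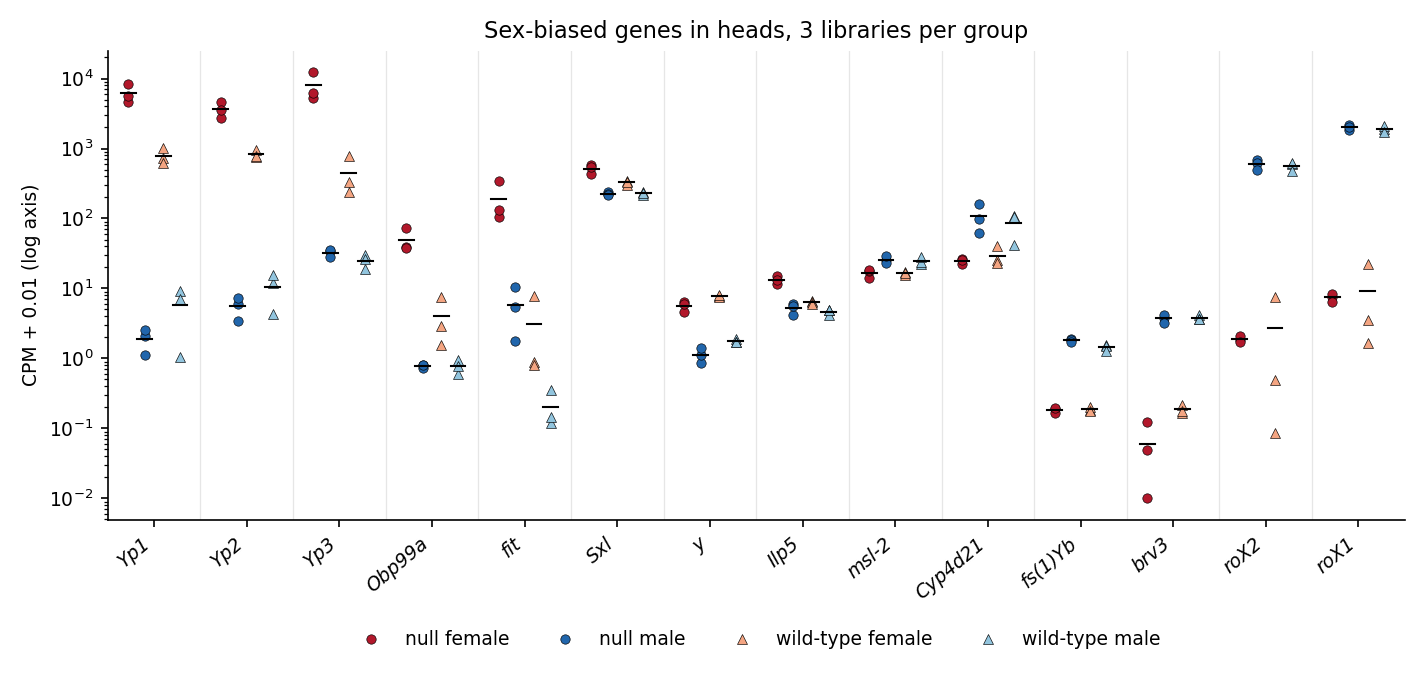
CPM plus 0.01 (log axis) of 14 genes in each library, with circles for Nab2 null and triangles for wild type and bars at the mean of the 3 libraries. In the null, the female and male libraries are separate for all 14 genes, and the Yp genes, Obp99a and fit reach higher levels in null females than in wild-type females.

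Both noncoding RNAs of the dosage compensation complex were male-biased. The libraries of null females held 170, 213 and 172 counts of roX1 and those of null males 55417, 45049 and 48597. For roX2 the values were 41, 54 and 46 in females and 17441, 15573 and 11861 in males. The log2 differences were 8.08 ± 0.79 for roX1 (adjusted p = 0.000277) and 8.32 ± 0.87 for roX2 (adjusted p = 0.000459), and 8.11 and 8.32 without null female library 1. In the annotation, roX1 lies at 3857230 to 3862697 on the reverse strand of the X and roX2 at 11579065 to 11580432 on the forward strand.

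Of the 10 genes in the dosage compensation list, 5 were higher in males (50%, against 13.1% of all genes) and none lower. Of the 5, 4 were also higher in the 6 libraries alone. Msl-2, the male-limiting subunit, had 314, 458 and 490 counts in females and 645, 567 and 705 in males, with no overlap (0.63 ± 0.13, adjusted p = 0.00751). JIL-1, a histone H3 kinase enriched on the male X, had 484, 769 and 821 counts in females and 1143, 1022 and 1371 in males (0.80 ± 0.14, adjusted p = 0.00433). The acetyltransferase gene mof was higher by 0.43 (adjusted p = 0.0195, 0.0737 in the 6 libraries alone). The remaining 5 genes, which include msl-1, msl-3 and mle, did not pass.

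X-linked genes were common among the large differences in both directions. The X supplied 1794 of the genes tested (16.0%). Among genes called in both fits with at least a 2-fold difference in the 12-library fit, 58 (0.517% of genes tested) were higher in males and 97 (0.864%) lower. The X supplied 30 of the former (51.7%) and 44 of the latter (45.4%). Each large autosomal arm supplied 3 to 15 of the former and 10 to 17 of the latter. Over all calls of the 12-library fit the X stood out less, with 14.4% of its tested genes higher in males and 22.6% lower. The corresponding shares were 11.3% to 14.1% and 12.4% to 16.7% on the large autosomal arms, and the median log2 difference on the X was -0.07, within the range of -0.08 to -0.03 on those arms.

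The share of all counts that came from X-linked genes was 16.7%, 16.4% and 16.6% in null females and 14.7%, 14.7% and 14.5% in null males. The groups did not overlap, and the difference of -1.98 percentage points had an exact permutation p of 0.1 (2-sided), the smallest that 3 against 3 libraries can give. Much of it came from a few genes. Without roX1, roX2 and the 3 yolk protein genes the difference was -0.82 points, and without the 1% of genes with the most counts it was -0.59 points.

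Sxl was the most sex-biased gene of the splicing cascade. Its counts were 9573, 14879 and 14648 in null females and 6079, 5482 and 5255 in null males, so that females were higher in every library and library 1 was the lowest of them. The log2 difference was -1.19 ± 0.11 (adjusted p = 0.000192), -1.16 in the 6 libraries alone (adjusted p = 0.0204) and -1.30 without null female library 1. In wild-type flies it was -0.51 (adjusted p = 0.0251). The difference between these effects, -0.68 ± 0.15, did not pass adjustment (adjusted p = 0.371, edgeR). Wild-type and null males were close in mean CPM, at 230 and 226 (SD 10.9, n = 3), while null females stood at 516 (SD 78.4, n = 3) and wild-type females at 329. Counts per gene sum over splice forms, so the sex-specific exons of Sxl, tra, dsx and fru were not resolved.

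Downstream of Sxl the gene totals of tra, dsx and fru did not pass the test. The tra gene had 93, 150 and 159 counts in females and 154, 155 and 153 in males (0.23 ± 0.15, adjusted p = 0.25). The log2 differences of dsx (-0.19 ± 0.12, adjusted p = 0.228) and fru (-0.15 ± 0.09, adjusted p = 0.254) did not pass either, and the sexes overlapped. With offsets for gene length, described below, both passed, with differences of -0.54 for dsx (adjusted p = 0.0101) and -0.62 for fru (adjusted p = 0.00286). Of the 8 tested genes in the sex determination list, 3 were lower in males (37.5%, against 16% of all genes) and none higher. Beside Sxl these were tra2, with a log2 difference of -0.31 ± 0.08 (adjusted p = 0.0183), and snf, a spliceosomal protein that takes part in Sxl splicing, with -0.45 ± 0.12 (adjusted p = 0.0215). Neither passed in the 6 libraries alone (adjusted p = 0.101 and 0.107) or without null male library 3. The tra2 gene also did not pass without null female library 1 or with library totals, where snf did. Among the 9 genes of the m6A methylation machinery, which acts on Sxl splicing, nito and vir were higher in males in the 12-library fit by 0.27 and 0.36 (adjusted p = 0.0339 and 0.0459). These 2 are 22.2% of the list, against 13.1% of all genes, and neither was called in the 6 libraries alone or without null female library 1.

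Several X-linked genes were close to absent in null female heads and present at low levels in null male heads. Brv3, a member of the brivido family of channels known for cold sensing, had 0, 1 and 3 counts in females and 96, 103 and 78 in males, a ratio of 70.0 with a 95% counting interval of 27.0 to 259 (adjusted p = 4.74e-06). The other 2 family members, brv1 and brv2, had at most 3 counts in any of the 6 libraries. The fs(1)Yb gene, known for piRNA production in the ovary, had 4, 4 and 5 counts in females and 48, 45 and 41 in males (3.34 ± 0.23, adjusted p = 8.76e-06). Both genes had the same direction in wild-type heads, with log2 differences of 4.38 and 2.97.

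The next genes beside fs(1)Yb on the forward strand, fs(1)Ya and vilya, showed the same direction and were chosen after their values were seen. With 0, 1 and 1 counts in females and 13, 7 and 12 in males, fs(1)Ya had a ratio of 16.2 (95% counting interval 4.12 to 139, adjusted p = 0.00445). Vilya had 0, 2 and 1 counts in females and 13, 13 and 9 in males, a ratio of 11.8 (3.72 to 59.9, adjusted p = 0.00637). Both were too low to enter the fit to the 6 libraries alone. The 3 genes span 2720468 to 2727568 on the X in the annotation. The genes on either side, CG2701 and dwg, had log2 differences of -0.21 (adjusted p = 0.126) and -0.00 (adjusted p = 0.99).

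The X-linked gene CG3706, also chosen after its values were seen, had 0, 0 and 1 counts in females and 37, 28 and 27 in males, a ratio of 92.9 (95% counting interval 16.3 to 3710, adjusted p = 0.000924), and was called in wild type as well (adjusted p = 0.00458).

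Further X-linked genes higher in males were CG14814 (current symbol Gcna), with 6, 12 and 13 counts in females and 55, 39 and 67 in males (2.39 ± 0.27), and Ndc80, a kinetochore component, with 13, 5 and 6 against 36, 36 and 34 (2.13 ± 0.38). TrxT, a thioredoxin known from testis, had 8, 12 and 10 counts against 23, 43 and 36 (1.77 ± 0.29). The noncoding RNA CR32553, which was not low in females, had 155, 102 and 90 counts against 395, 317 and 431 (1.71 ± 0.22). The adjusted p-values of these 4 genes were between 0.00071 and 0.00502 with 12 libraries, and all 4 passed in the 6 libraries alone. A 5S ribosomal RNA pseudogene, CR33363, with 0, 3 and 7 counts in females and 17, 97 and 38 in males, and a 28S pseudogene, CR45855, with 22, 40 and 50 against 90, 126 and 133, were also higher in males. They may share reads with near-identical copies and are uncertain. So is the antisense RNA CR44961, with 7, 9 and 18 counts against 46, 25 and 31.

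Transcripts of mature sperm development were at trace levels in null male heads. Of the 25 genes in the testis list, 11 had 0 counts in all 3 null female libraries, and 9 of these had counts in null males. S-Lap3 had 7, 19 and 0 counts in males, ocn 6, 4 and 1, and dj 5, 4 and 0, so that null male library 3 held the fewest. Of the 15 tested genes of this list, 2 were higher in males (13.3%, against 13.1% of all genes) and none lower, whereas in wild type 11 were higher (median 2.38, against 1.05 in the null); the difference between genotypes was not tested for the list. The 2 genes were ocn (adjusted p = 0.0381) and the RNA-binding protein gene bol, with 1087, 2137 and 2068 counts in females and 2845, 2369 and 3030 in males (0.68 ± 0.19, adjusted p = 0.0225). No gene of the list was called higher in the null in the 6 libraries alone or without null male library 3. Without null female library 1, 1 was. The summed CPM of the list was 58.4 to 92.6 in females and 112 to 135 in males without overlap, most of it from bol. None of the 4 tested ovary genes passed the test, nor did the 1 tested accessory gland gene. No gut protease gene was high enough to be tested, and 10 of the 25 listed were at 0 in all 6 libraries. The accessory gland markers SP, Acp98AB, Dup99B and Sems were at 0 in all 6 libraries. The part of stray testis RNA in the low male-biased genes was not tested.

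Among the genes higher in females, 6 shared a profile that was not one of sex alone. CG16826 had 1142, 3691 and 1884 counts in null females and 7, 6 and 1 in null males (log2 difference -8.83 ± 1.59, adjusted p = 0.00511). The X-linked gene whe had 465, 1596 and 780 counts in null females and 1, 4 and 2 in null males, a ratio of 402 with a counting interval of 195 to 1000 (adjusted p = 0.000924). CG45080, with 32, 131 and 95 counts against 1, 0 and 0, had a ratio of 255 (45.4 to 10126), and CG43680, with 22, 138 and 62 against 1, 0 and 1, one of 110 (30.1 to 913).

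CG43679 (150, 421 and 191 counts against 1, 1 and 2) and CG13947 (30, 145 and 38 against 2, 1 and 1) completed the group, with ratios of 189 and 52.7. In all 6 genes the highest null female was library 2. Their summed CPM was 82.1, 236 and 114 in null females and 0.290 to 0.510 in null males, but in wild-type males it was 8.15, 62.9 and 4.69, within reach of the 118.8, 38.7 and 78.8 of wild-type females. Wild-type male library 2 was the highest of its group in all 6. CG44142, chosen after its values were seen, had 15, 60 and 40 counts in null females and 0 in each null male. With a floor of 3 counts over the 3 male libraries, the ratio was 37.9 (95% counting interval 12.7 to 187). In wild-type males CG44142 had 0, 28 and 0 counts. No function is given here for these genes. CG13947 lost its call in 10 of 30 alternative settings.

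Odorant-binding protein genes, whose products carry odorants in the fluid around sensory neurons, were lower in null males. Of the 34 tested, 13 were lower (38.2%, against 16% of all genes) and none higher, with a median of -0.54. Of the 13, 10 were also lower in the 6 libraries alone. Beside Obp99a they included Obp56e, with 22221, 16266 and 15512 counts in females and 6989, 7126 and 6955 in males (-1.37 ± 0.23, adjusted p = 0.00386). Obp19d had 29311, 24364 and 22355 counts in females and 12862, 10293 and 9766 in males (-1.22 ± 0.19, adjusted p = 0.00295), and Obp18a 2029, 1700 and 1666 against 973, 788 and 721 (-1.13 ± 0.16, adjusted p = 0.002). In these 3 genes the sexes did not overlap, and library 1 was the highest female. Without null female library 1 their differences were -1.08, -0.996 and -0.93, and each still passed. From the Obp56 gene cluster, Obp56a (-1.32), Obp56d (-1.09) and Obp56f (-1.33) were lower in both fits, and Obp56g (-0.59) in the 12-library fit. In wild type 1 of the 34 was lower in males, and the median was -0.11.

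Chemosensory receptors were sampled at low counts. Of 69 tested odorant, gustatory and ionotropic receptor genes, 8 were lower in males and 1 was higher, shares of 11.6% and 1.45% that lie under the 16% and 13.1% of all genes. Of these calls, 2 of the lower genes passed in the 6 libraries alone and none passed without null female library 1. Ir8a, a co-receptor for acid sensing, had 40, 43 and 29 counts in females and 16, 8 and 13 in males (-1.58 ± 0.45, adjusted p = 0.0244). The odorant co-receptor gene Orco also had a negative difference (-1.05 ± 0.32, adjusted p = 0.0328), while Ir62a was higher (0.71 ± 0.20, adjusted p = 0.0243). Among 76 cytochrome P450 genes, 6 were higher in males and 13 lower (7 and 7 with library totals, 5 and 6 without null female library 1), of which 4 and 5 also in the 6 libraries alone. The shares of 7.89% and 17.1% stand beside 13.1% and 16% of all genes. Beside Cyp4d21 the list held Cyp313a1, with 6211, 6681 and 6043 counts in females and 10249, 10144 and 9502 in males (0.67 ± 0.09, adjusted p = 0.00125). Cyp6v1 was lower, with 1090, 1208 and 1211 against 716, 697 and 749 (-0.69 ± 0.09, adjusted p = 0.000938). Of 31 glutathione transferase genes, 7 were lower (22.6%, against 16% of all genes) and none higher in the 12-library fit. Without null female library 1, 1 was lower, and none passed without null male library 3 or in the 6 libraries alone.

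Of 14 insulin signalling genes, 2 were lower in males (14.3%, against 16% of all genes) and 1 higher, no larger a share than over all genes. Ilp5, an insulin-like peptide of brain neurosecretory cells, had 333, 301 and 348 counts in females and 105, 149 and 136 in males, without overlap (-1.32 ± 0.15, adjusted p = 0.00071). Ilp3 had 1256, 978 and 1005 counts in females and 495, 682 and 611 in males (-0.86 ± 0.16, adjusted p = 0.00624, 0.0507 in the 6 libraries alone). Tor, a growth-controlling kinase, was the 1 higher in males (0.32 ± 0.09, adjusted p = 0.0242, 0.0929 in the 6 libraries alone).

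Of 17 cuticle tanning and yellow family genes, 4 were lower in males (23.5%, against 16% of all genes) and none higher. Without null female library 1, 2 were lower. The yellow gene (y), needed for black pigment, had 143, 121 and 160 counts in females and 22, 27 and 34 in males (-2.34 ± 0.18, adjusted p = 3.38e-05), and a like difference in wild type (-2.14, adjusted p = 4.79e-05). Yellow-d (-1.07 ± 0.27, adjusted p = 0.0159) was the other that passed in both fits, although not without null female library 1 (adjusted p = 0.054), while yellow-f and the tan gene (t) passed with 12 libraries only.

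Blood cell markers were lower in males in 8 of 11 genes (72.7%, against 16% of all genes) and higher in 1. In the 6 libraries alone 2 of the former were lower. NimC1, a phagocytosis receptor, had 2311, 2195 and 1992 counts in females and 1176, 1246 and 1079 in males (-0.89 ± 0.11, adjusted p = 0.000938). PPO1, a prophenoloxidase of crystal cells, had 352, 304 and 495 against 211, 172 and 109 (-1.22 ± 0.21, adjusted p = 0.00406). The summed CPM of the 11 genes was 682 to 800 in females and 557 to 598 in males.

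All 6 larval serum and fat body protein genes had a negative log2 difference, and 3 were lower by the test (50%, against 16% of all genes). Fbp2 had 1043, 1267 and 1013 counts in females and 236, 491 and 295 in males (-1.69 ± 0.36, adjusted p = 0.0093), and Lsp1alpha, an X-linked storage protein gene, 766, 898 and 927 against 396, 476 and 433 (-0.97 ± 0.21, adjusted p = 0.00999). Lsp2 passed with 12 libraries (adjusted p = 0.0249) but not without null female library 1 (adjusted p = 0.106), and its sexes overlapped, with 24825, 17233 and 9195 counts in females and 7786, 6875 and 9216 in males. In the muscle list, 6 of 21 genes were lower (28.6%, against 16% of all genes) and 2 higher. Without null female library 1, 4 were lower and none higher. Mlc1, a myosin light chain, had 36443, 38449 and 40081 counts in females and 21242, 25390 and 22767 in males (-0.72 ± 0.10, adjusted p = 0.00193), and the troponin C gene TpnC41C 2387, 1946 and 1943 against 1012, 948 and 827 (-1.18 ± 0.17, adjusted p = 0.00209). The largest differences in the list rested on 1 or 2 libraries. Fln, the flight muscle protein flightin, had 246, 86 and 5 counts in females and 5, 9 and 12 in males, and TpnC4, a flight muscle troponin C, 75, 19 and 8 against 3, 3 and 5. Fln (adjusted p = 0.0421) overlapped between the sexes, and neither gene was called without null female library 1 (adjusted p = 0.225 and 0.081). The 2 higher, TpnC47D and TpnC73F, had differences of 1.05 and 1.20 (adjusted p = 0.046 and 0.0427) and did not pass in the 6 libraries alone.

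Several broad groups of genes moved together, and these groups also differed in gene length, described below. Cytosolic ribosomal protein genes were lower in null males in 67 of 85 cases (78.8%, against 16% of all genes) and higher in 4. Their median was -0.58. RpL41 had 53104, 36948 and 40183 counts in females and 24825, 24613 and 20671 in males (-0.91 ± 0.16, adjusted p = 0.00502), and RpS5a 33648, 25366 and 26214 against 17427, 16613 and 14304 (-0.83 ± 0.14, adjusted p = 0.0046). Their summed CPM was 80898, 55150 and 56764 in females and 41305 to 45654 in males, so that library 1 was far above the other 2 females. In the 6 libraries alone 5 were lower, and without null female library 1 the counts were 61 lower and 2 higher with a median of -0.36. Without null male library 3, 26 were lower and none higher (median -0.54). Nuclear-encoded respiratory chain genes were lower in 38 of 72 cases (52.8%) and higher in 5 (median -0.39). The counts were 2 and 1 in the 6 libraries alone, 22 and 3 without null female library 1 (median -0.21), and 5 and 1 without null male library 3. Mitochondrial ribosomal protein genes were lower in 23 of 72 cases (31.9%) and higher in 1 (median -0.30). They had 0 calls in the 6 libraries alone, 10 lower without null female library 1, and 2 lower without null male library 3.

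Neuronal genes went the other way. All 18 had a positive log2 difference, and 11 were higher by the test (61.1%, against 13.1% of all genes). In the 6 libraries alone 2 were higher, and the median of the 12-library fit was 0.51. Without null female library 1, 6 were higher (median 0.36), and without null male library 3, 1 was (median 0.45). Brp, the active zone scaffold bruchpilot, had 2640, 4178 and 4597 counts in females and 6788, 6002 and 6703 in males (0.80 ± 0.20, adjusted p = 0.0161), and the acetylcholine synthesis gene ChAT had 1441, 2790 and 2853 against 3651, 3689 and 3772 (0.69 ± 0.16, adjusted p = 0.0127). Null female library 1 was the lowest in both, and without null male library 3 neither passed (adjusted p = 0.0625 and 0.053). The most abundant genes called higher in males in both fits had the same form. Futsch, a microtubule-associated protein, had 12983, 20201 and 20966 counts in females and 30367, 25237 and 30809 in males (0.70 ± 0.21, adjusted p = 0.0298). Its call was lost in 11 of 30 alternative settings, including without null female library 1 (adjusted p = 0.0889) and without null male library 3 (adjusted p = 0.103). Pros, a neural transcription factor, had 5002, 7917 and 8018 against 11997, 10119 and 11190 (0.70 ± 0.16, adjusted p = 0.0114). Nrx-1, a neurexin, had 4096, 7089 and 7463 against 10881, 9472 and 11033 (0.79 ± 0.16, adjusted p = 0.00885), and CG3164 7614, 11428 and 11838 against 14488, 16865 and 16026 (0.65 ± 0.12, adjusted p = 0.00519). Of the abundant genes lower in males, CG1561 (current symbol pkm), which lies within nod on the opposite strand next to roX2, had 62079, 66673 and 72688 counts in females and 45371, 43481 and 38434 in males (-0.65 ± 0.09, adjusted p = 0.00221).

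**Figure D3:**
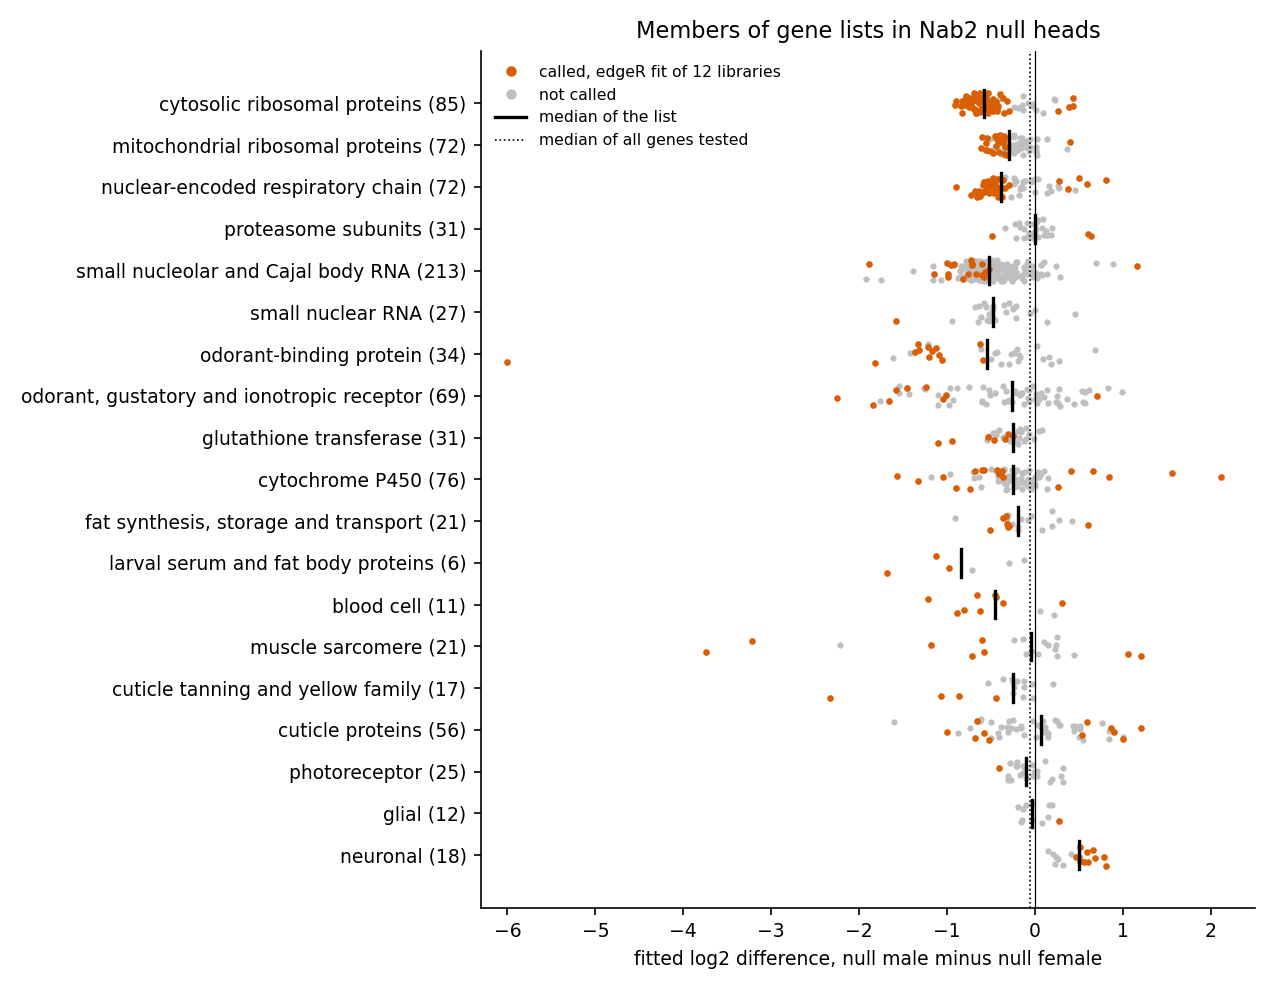
Fitted log2 difference of null males minus null females for the tested members of 19 gene lists (number in brackets), with called genes in orange, uncalled genes in grey, list medians as bars and the median of all genes as a dotted line. Ribosomal, respiratory and odorant-binding protein genes lie to the left and neuronal genes to the right, while photoreceptor, glial and proteasome genes centre near 0.

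The exonic length of a gene was associated with its sex difference across the whole transcriptome. Genes higher in males had a median exonic length of 4291 bases and genes lower in males one of 1456, against 1935 for all genes tested. In the shortest quartile of genes, 82 were higher and 598 lower in males, with a median log2 difference of -0.29. In the longest quartile, 932 were higher and 103 lower, with a median of 0.22. The neuronal list had a median length of 8564 bases and the cytosolic ribosomal list one of 927.

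Null female library 1 was the most extreme library in this trend. The shortest quartile of genes took 25.3%, 18.6% and 19.2% of the counts in tested genes in null females and 18.0%, 18.4% and 16.1% in null males, and the longest quartile took 28.1%, 36.3% and 35.8% against 39.99%, 39.1% and 42.1%. Without null female library 1 the medians ran from -0.14 in the shortest quartile to 0.15 in the longest, and in wild type from -0.03 to 0.07. When library offsets that remove the trend on length were added, a setting chosen after the data were seen, 2520 genes (22.5%) were called, 1136 (10.1%) higher and 1384 (12.4%) lower. The ribosomal list then had 57 lower and 6 higher, the respiratory list 23 and 7, and the mitochondrial ribosomal list 6 and 2. The neuronal list had 4 higher, with a median of 0.16, and the odorant-binding list had 13 lower and 1 higher. Futsch was no longer called (0.21, adjusted p = 0.229) and neither was pros (0.20, adjusted p = 0.0792), while fru (-0.62, adjusted p = 0.00286) and dsx (-0.54, adjusted p = 0.0101) became lower in males. The offsets also changed the medians by expression level. In the quartile of genes with the highest mean CPM the median went from -0.05 (437 higher, 567 lower) to -0.11 (196 higher, 593 lower). In the lowest quartile it went from -0.02 to 0.11. The part of RNA quality or library preparation in this trend was not tested.

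**Figure D4:**
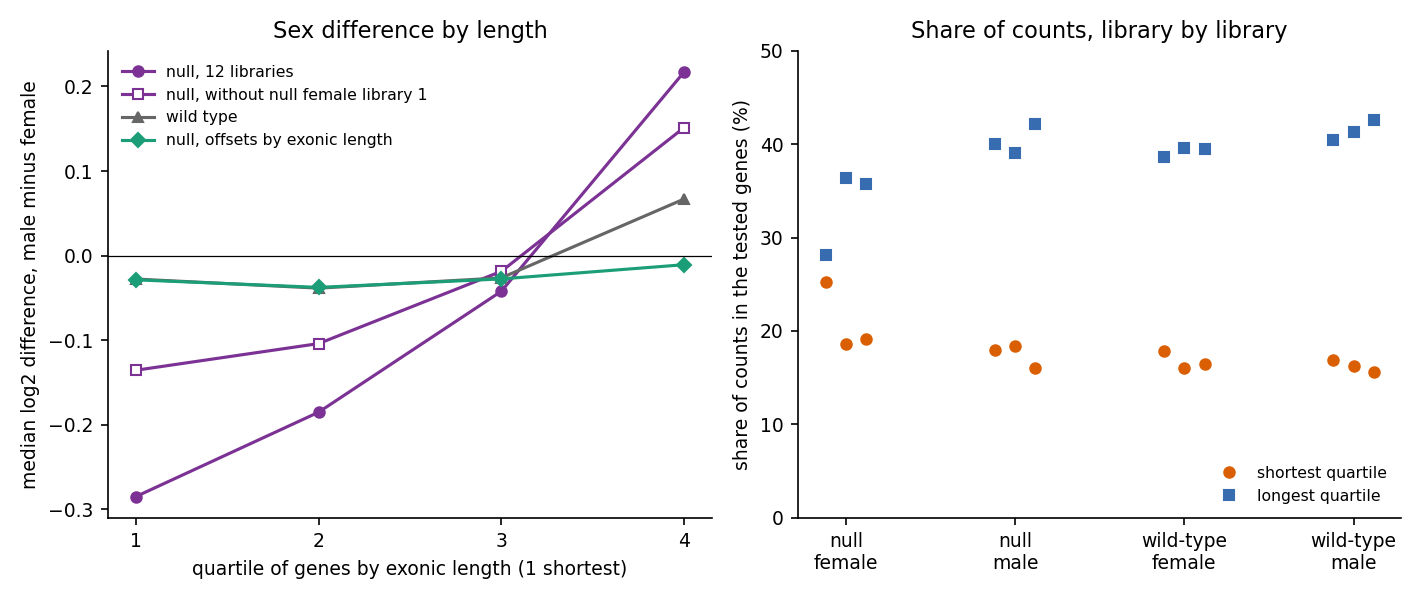
Left, the median log2 difference of males minus females in quartiles of the tested genes by exonic length, for the null with 12 libraries, without null female library 1 and with offsets by length, and for wild type. Right, the share of counts of the shortest and the longest quartile in each library, where null female library 1, at 25.3% and 28.1%, lies apart from the other 11 libraries.

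Of 213 small nucleolar and Cajal body RNAs, which are short, 19 were lower (8.92%, against 16% of all genes) and 1 higher, with a median of -0.52. Without null female library 1, 3 were lower and the median was -0.07, and 1 was lower in the 6 libraries alone. The summed CPM was 44788, 18360 and 23169 in females and 16193 to 20364 in males. Of 27 small nuclear RNAs, some of which share near-identical copies, 1 was lower (median -0.48, and 0.02 without null female library 1).

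The remaining lists are given by their counts, to be read beside the 13.1% of all genes higher and 16% lower. Of 21 genes of fat synthesis, storage and transport, 6 were lower (28.6%) and 1 higher in males, but with library totals 3 were higher and none lower. None of them was lower without null female library 1, and none was called in the 6 libraries alone. Of 56 cuticle protein genes, 6 were higher and 5 lower. TwdlG, with 21, 29 and 31 counts in females and 52, 65 and 68 in males (1.21 ± 0.17, adjusted p = 0.00191), was the 1 also called in the 6 libraries. Of 10 eye pigment genes 3 were lower in the 12-library fit and none without null female library 1, of 25 photoreceptor genes 1 was lower (with library totals 3 were higher and none lower), and of 12 glial genes 1, repo, was higher (0.27 ± 0.07, adjusted p = 0.0177). Of 31 proteasome subunits 2 were higher and 1 lower. Of 17 heat shock genes 2 were higher and of 17 antimicrobial peptide genes 1 was lower, none of them without null female library 1. No Turandot stress gene of 5 passed, although their summed CPM ranged from 245 to 1528 in females, with library 1 the highest, and from 74.1 to 478 in males. In the 12-library fit 2 of 16 ecdysone genes were higher, as was 1 each of 9 juvenile hormone, 9 clock, 7 cuticular hydrocarbon and 7 poly(A) factor genes, the last being Fmr1 (0.34 ± 0.10, adjusted p = 0.0334). No member of the last 5 lists was called in the 6 libraries alone.

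The same contrast in wild-type heads uses none of the same libraries. There 378 of the 11223 genes (3.37%) were called, 146 (1.3%) higher in males and 232 (2.07%) lower. Of these, 246 were also called in the null, which is 65.1% of the wild-type calls and 7.53% of the null calls. Over all genes tested, 29.1% were called in the null and 3.37% in wild type. All 246 had the same direction, 78 higher in males and 168 lower. Among the 566 genes called in both fits of the null, 136 (24.0%) were called in wild type. Across all genes tested, the 2 sets of log2 differences had a Pearson correlation of 0.61, given as a description over 11223 genes, which are not independent replicates. The median size of the difference was 0.27 in the null and 0.14 in wild type, on the log2 scale.

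The fitted sex differences of the yolk protein genes were larger in size in the null than in wild type. In wild type the log2 differences were -7.06 for Yp1, -6.29 for Yp2 and -4.17 for Yp3. Wild-type female libraries held 29623, 18737 and 14611 counts of Yp1 and wild-type males 28, 302 and 210, so that every null female was above every wild-type female, while the null males lay within the range of the wild-type males. The difference between the sex effects was -4.60 ± 0.77 for Yp1, -3.05 ± 0.54 for Yp2 and -3.77 ± 0.58 for Yp3. None of the 3 passed adjustment over all genes (adjusted p between 0.182 and 0.184, edgeR). For CG16826 the difference was -9.47 ± 1.92 (adjusted p = 0.239) and for the roX RNAs 0.39 ± 0.85 and 0.55 ± 1.05.

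Across all genes the test of the difference between the sex effects called 1 of 11223 genes (0.00891%), with 1297 at an unadjusted p under 0.05. By the same test DESeq2 called 27 genes and limma-voom 13. The gene called by edgeR was pgant4, an enzyme gene of mucin-type O-glycosylation. It had 12, 14 and 17 counts in null females and 20, 18 and 19 in null males, and 27, 38 and 31 counts in wild-type females and 6, 7 and 8 in wild-type males. The sex difference was thus -2.36 in wild type (adjusted p = 0.000537) and 0.42 ± 0.24 in the null (adjusted p = 0.249), and the difference of 2.78 ± 0.35 passed narrowly (adjusted p = 0.0483, edgeR). It was called in 7 of the 20 alternative settings that tested it, and in 1 of the 12 that left out 1 library, with adjusted p from 0.00151 to 0.31 and the log2 difference between 2.63 and 2.95. None of the 10 tested pgant genes differed between the sexes in the null by the test.

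**Figure D5:**
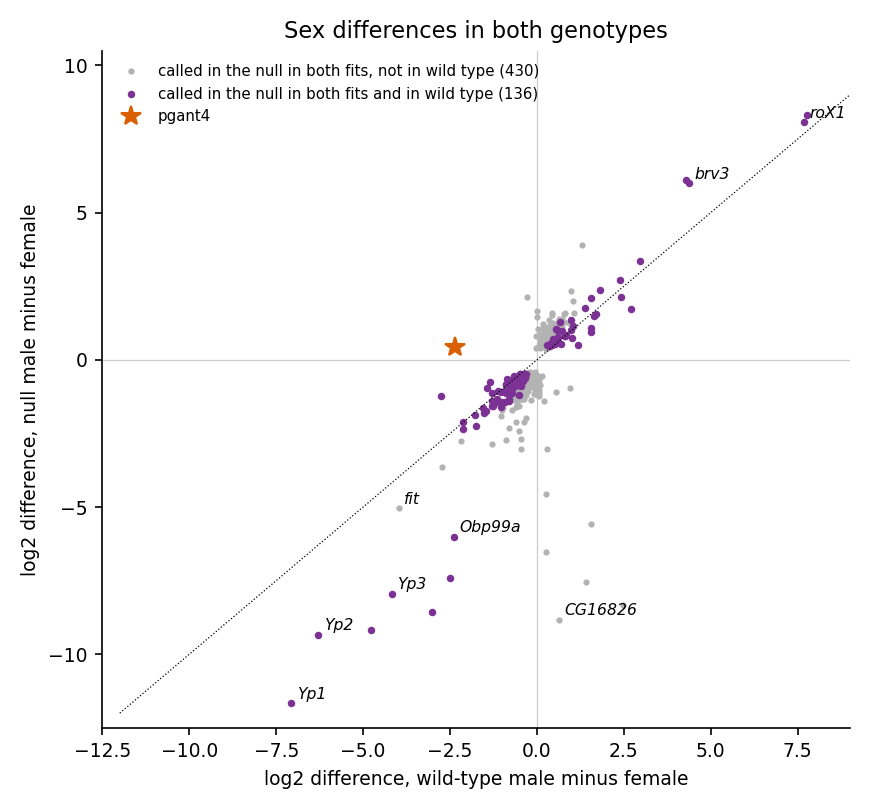
Log2 difference of males minus females in wild type against that in the null for the 566 genes called in both fits of the null, purple where also called in wild type (136), with pgant4 as a star and a dotted line of equal differences. The yolk protein genes lie below the line and the roX RNAs close to it, and CG16826 is near 0 in wild type.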

How the data were processed

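RNA was measured in 12 pooled head samples, of which the 6 Nab2 null samples are the subject here. Per the submitters' processing notes, the authors used genome build BDGP6, STAR 2.5.2b-0, featureCounts 1.6.0.3 and DESeq2 2.11.40.1. The deposited files hold raw counts per gene for 17737 names, per the file headers, and the authors' deposited table of comparisons gives a log2 fold change and an adjusted p-value per gene, which were not mixed with the values computed here. The strand setting for counting is not given in the sources used here, and null male library 3 is the one whose deposited name records the orientation of its reads.

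Counts were analysed with edgeR 4.0.16 in R 4.3.3: filterByExpr with the 4 groups, TMM factors (0.865 in null female library 1 and 0.965 to 1.02 in the other null libraries), 1 mean per group over 12 libraries, a quasi-likelihood F test of null males minus null females, and Benjamini-Hochberg adjustment over all genes tested. The SE is the log2 difference divided by the square root of F. CPM means and SDs are over 3 libraries. DESeq2 1.42.0 and limma 3.58.1 served as alternatives, as did other scalings, filters, libraries left out and the 6 null libraries alone, and the scripts were tested on simulated data. Where a group held 10 counts or fewer, a ratio with an exact 95% interval is given, which covers counting error only. Gene names were matched to the Ensembl 115 annotation of BDGP6.54, 14134 by symbol and 3528 by synonym (99.6% in all), and coordinates, gene types and exonic lengths come from it. Genes at 0 in all 6 null libraries numbered 2413.

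Genes named are the sex pathway genes, up to 12 in each direction with the largest differences and 5 with the highest CPM among genes called in both fits whose counts average 20 or more and whose sexes do not overlap, up to 4 from each of 39 lists, and those with a difference between sex effects. Other genes were named after their values were seen. The comparison, the lists and the rule were chosen with earlier results of these data known, so lists carry counts and medians but no test of their own.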

Additional observations from a re-analysis of the deposited data

Results flagged for a closer look

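The sex difference of pgant4 differed between the genotypes, by 2.78 on the log2 scale in the test of the difference itself (adjusted p = 0.0483, edgeR). The call ended in 11 of the 12 fits with 1 library left out and with a replicate block (adjusted p = 0.0686), while the log2 difference stayed between 2.63 and 2.95. Wild-type males were lower than wild-type females in all 3 libraries, while the null males were higher than the null females in all 3. With at most 38 counts in any library, the gene is measured with little depth.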

How the results depend on the processing

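The number of genes called depended on the libraries that set the spread. With the 6 null libraries alone it was 571 (279 higher in males, 292 lower, 159 at least 2-fold), and with length offsets added 745 (336, 409 and 138). Leaving out 1 library from that fit gave 15 to 1154 genes (5 to 677 higher, 9 to 477 lower, 15 to 111 at least 2-fold), the most without null female library 1. In the 12-library fit, leaving out 1 library gave 914 to 3696 genes (387 to 1520 higher, 527 to 2176 lower, 152 to 404 at least 2-fold). With null female library 1 and null male library 3 both out there were 922 (426, 496 and 95), a setting added after the data were seen, as were the length offsets. Fewer libraries leave fewer degrees of freedom; the cause was otherwise not tested. Library totals without scaling factors gave 859 lower genes. DESeq2, limma-voom, RLE scaling and the filters gave totals within 1.5 times.

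The difference between the sex effects gave 27 genes with DESeq2, 13 with limma-voom, 2 without a filter, 0 with at least 1 CPM in 3 libraries, 0 with null female library 1 and null male library 3 out, and 0 to 3 with 1 library left out (0 in 10 of these 12 fits). The male minus female difference in the X share was -1.98 points, -2.20 without the roX genes, -0.82 without these and the yolk protein genes, and -0.59 without the top 1% of genes. The Nab2 difference ranged from -0.69 to 1.19 with 1 library left out, reversed without null male library 1 (-0.69 with 12 libraries, -0.65 with 6) and uncalled throughout.

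Replicate numbers may pair the null samples in part. Deviations of same-numbered males and females correlated at 0.27, 0.05 and 0.31, and those of differently numbered ones at -0.28 to 0.12. Null female libraries 1 and 3 were closest to the null male of their own number, and null female library 2 to null male library 3 (0.12). Whether the samples were paired was not tested. With a replicate block, 3866 genes were called with 12 libraries and 2265 with the null alone (1207 higher, 1058 lower), and 0 for the difference between sex effects.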
